A study of Mus musculus with 8 samples.

Results

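The genes of the mitochondrial respiratory chain and ATP synthase were taken from the RefSeq gene table for GRCm38 by symbol. Protein-coding genes named Ndufa, Ndufb, Ndufc, Ndufs or Ndufv with a number, Sdha to Sdhd, Uqcr, Cox4i to Cox8 and Atp5 were kept. This gave 87 of the 21531 protein-coding genes with a known strand: 40 of complex I, 4 of complex II, 8 of complex III, 18 of complex IV and 17 of complex V. No measured value entered the choice. Their chromatin was read from CUT&Tag in MEL, a cell line grown from mouse erythroid leukaemia. The antibodies recognised Rpb1, the largest subunit of RNA polymerase II, phosphorylated on Ser5 (Ser5P) or Ser2 (Ser2P) of its C-terminal domain. CUT&Tag directs a transposase to antibody-bound chromatin, where it inserts sequencing adapters. Each antibody was used on 2 libraries of a dCAS control line and 2 libraries of a Myrlin KD line, in which the transcript of an enhancer of Myb is knocked down, so 8 libraries fell into 4 groups. The labels name control and CRISPR-edited lines, with no further treatment, and call the replicates biological, each from a collection of MEL cells. They do not say whether a line is a clone or whether the cultures of a group were separate, so the p-values below cover library-to-library spread only, part of which can be technical.

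The respiratory chain carries electrons from NADH and succinate to oxygen. Complex I oxidises NADH, complex II oxidises succinate, complex III passes electrons from ubiquinol to cytochrome c, and complex IV reduces oxygen. Complexes I, III and IV pump protons across the inner membrane, and complex V, the ATP synthase, uses the proton gradient to make ATP. Erythroid precursors depend on mitochondria to make haem and lose them when they mature. Ser5P is placed on polymerase around initiation, and Ser2P builds up during elongation. Neither mark measures the amount of RNA or protein.

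For each gene the promoter was the 1000 bp on each side of its outer 5′ end, and the transcribed interval ran from 1000 bp inside the gene to 3000 bp past its 3′ end. A promoter or interval was called marked in a library when a peak covered at least 1 bp of it. Height is given as the summit pileup, the number of fragments or reads stacked at the highest point of the highest peak, solved from the deposited fold and p of that peak. The lists held 20793 to 32125 peaks. Relative depth was read from the background pileup. Among the Ser5P libraries, control 1 stood at 0.568, control 2 at 0.641, KD 1 at 0.647 and KD 2 at 0.839. Among the Ser2P libraries, control 1 stood at 0.783, control 2 at 0.438, KD 1 at 1.12 and KD 2 at 1.03. Ser2P control 2 was thus the shallowest library, and both KD libraries lay above both controls in depth for each mark, by little between Ser5P control 2 and KD 1. The erythroid label was checked on promoters. All 4 Ser5P libraries had a peak at 5 of 12 erythroid markers (41.7%, near the 37.7% of all genes), among them Klf1 and Nfe2, and at 0 of 10 lymphoid, 0 of 10 myeloid and 1 of 10 muscle and heart markers. Gata1, Alas2, Slc4a1, Ank1 and Hbb-bt had no promoter Ser5P peak in any library. Interval Ser2P was present in all 4 Ser2P libraries at 9 of 12 erythroid markers, Gata1 and Alas2 among them. It was also present at 2 of 10 lymphoid, 2 of 10 myeloid and 3 of 10 muscle and heart markers, beside 26.4% of all genes.

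Most of the genes that encode the respiratory chain had peaks of both polymerase marks at their promoters. Promoter Ser5P was present in all 4 Ser5P libraries at 66 of 87 genes (75.9%), beside 37.7% of all genes. Promoter Ser2P was present in all 4 Ser2P libraries at 66 genes as well, beside 36.3% of all genes, and 65 genes (74.7%) carried both marks in all 8 libraries, beside 34.5% of all genes. A further 11 genes were marked in 1 to 7 libraries and 11 in none. These shares are counts with no test, since genes of a list are not replicates. Once a promoter was marked in all 4 libraries its coverage was close to that of other genes: the median Ser5P coverage was 779 bp of the window, and 778.8 bp over all genes. The median Ser5P height was 0.970 times the library median for these genes and 1.01 times for all genes.

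By complex, both marks were present in all 8 libraries at 33 of 40 genes of complex I, 4 of 4 of complex II, 7 of 8 of complex III, 9 of 18 of complex IV and 12 of 17 of complex V. Complex IV thus had the most unmarked genes, 8 of the 11. The mean Ser5P summit pileup of genes marked in all 4 libraries ranged from 16 to 149 in complex I, 15 to 40.3 in complex II, 26.5 to 137 in complex III, 19.3 to 105 in complex IV and 15.8 to 121 in complex V. The medians lay at 41.8, 21.3, 39.3, 35.5 and 39.5 in the same order, so only complex II, with 4 genes, sat lower than the others.

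**Figure D1:**
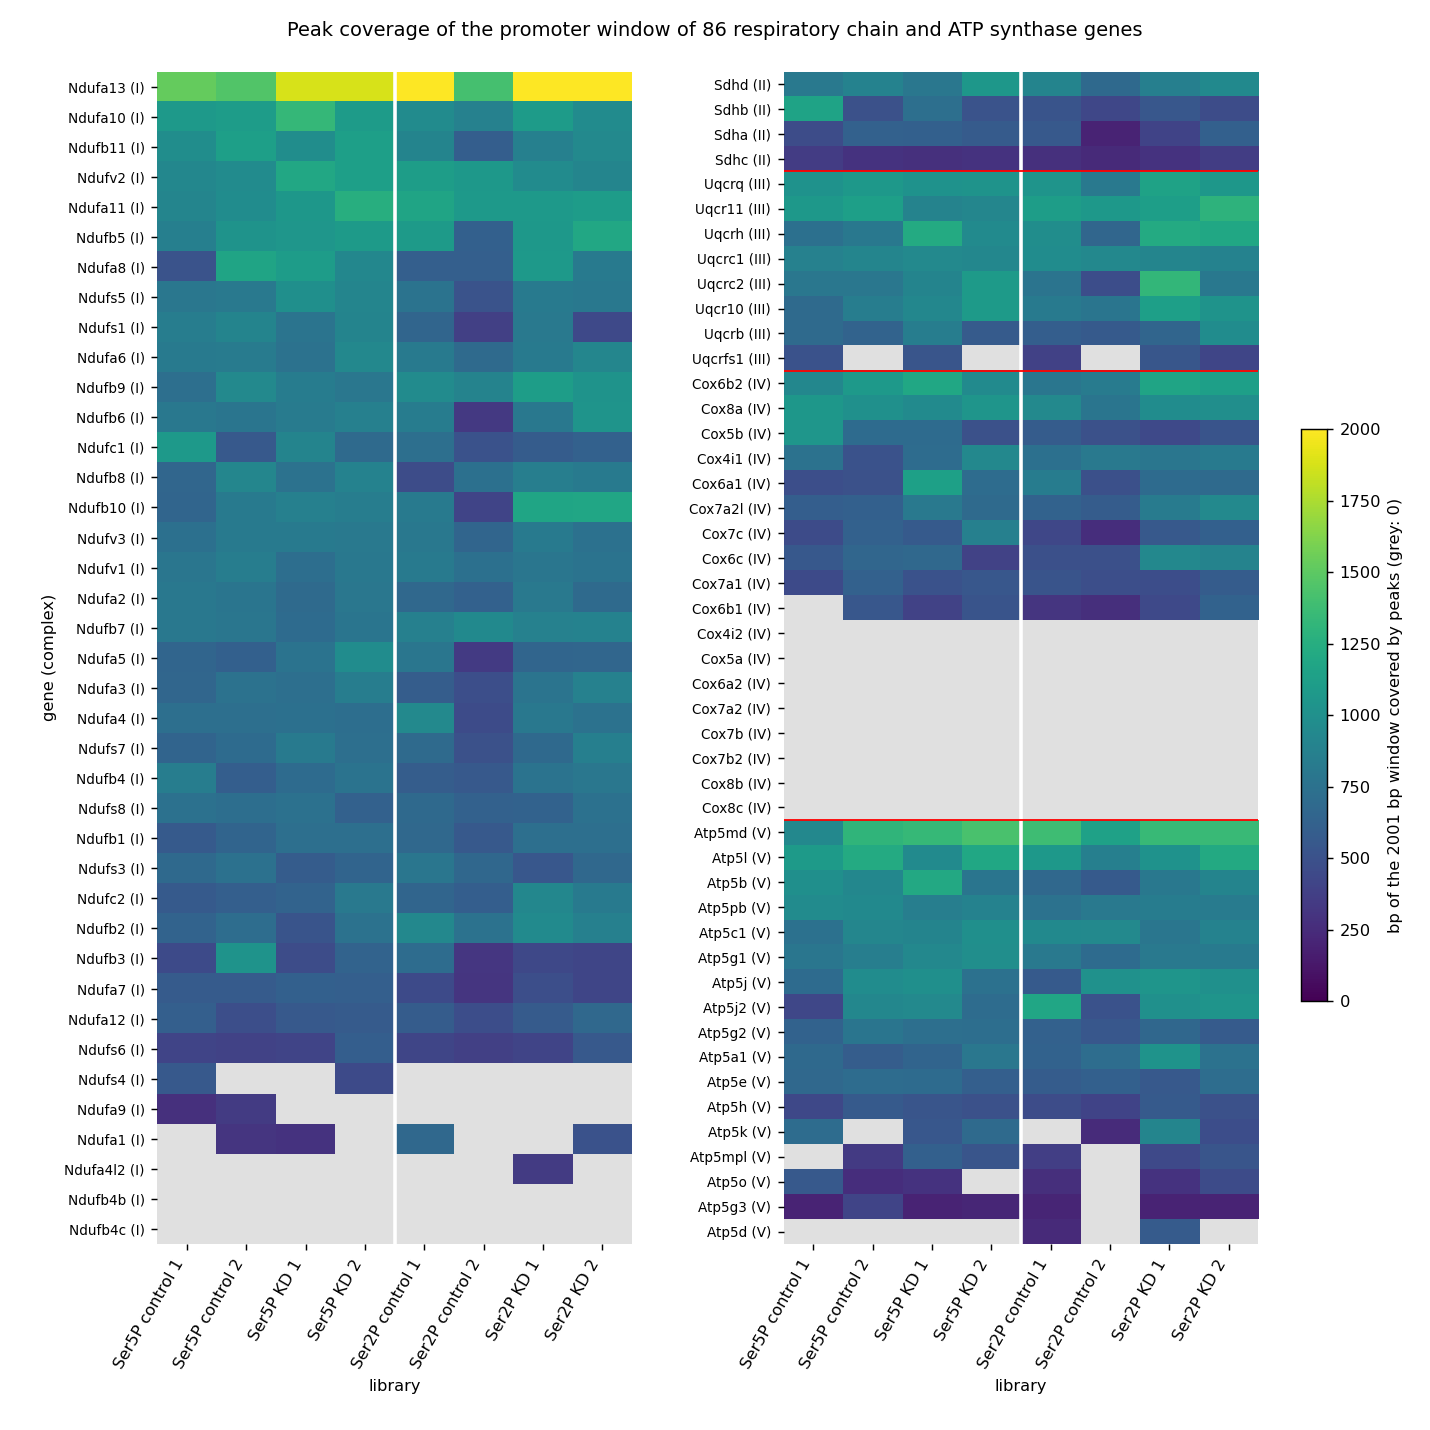
Bases of the promoter window covered by peaks for 86 of the 87 genes (rows, grouped by complex and ordered by mean Ser5P coverage) in each of the 8 libraries (columns). Colour gives bp covered and grey stands for 0; a reader should see that coloured rows run across both antibodies and both lines, and that 8 of the 10 rows grey throughout belong to complex IV.

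In complex I the widest promoter coverage was that of Ndufa13, an accessory subunit also known as a cell death regulator. Ser5P covered 1527, 1454, 1882 and 1878 bp of its window in control 1, control 2, KD 1 and KD 2, the order used for every run of 4 values here. Ser2P covered 1411 bp in control 2 and the whole window in the other 3 libraries. The highest peaks lay 439 to 765 bp upstream of the outer Ndufa13 5′ end in the 8 libraries. The Ndufa13 RefSeq start lies 538 bp inside the gene. The 5′ end of Tssk6, a kinase gene on the opposite strand, lies 374 bp inside it. The coverage thus cannot be assigned to Ndufa13. The accessory subunit gene Ndufa10 came next, with Ser5P over 1075, 1106, 1332 and 1101 bp. Ser5P summits were highest at Ndufa11, another accessory subunit, with Ser5P pileups of 146, 156, 149 and 146 and Ser2P pileups of 125, 71, 154 and 167, at a median of 442 bp upstream of its 5′ end. For Ser2P, Ndufa13 was higher than Ndufa11 in every library, with pileups of 140, 84, 195 and 199. The Ndufa11 neighbour Vmac starts 63 bp away on the opposite strand.

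The core subunits of complex I, which carry its flavin and iron-sulphur clusters, did not stand above the accessory ones. Ndufv1, which binds NADH and the flavin, had Ser5P pileups of 35, 48, 36 and 49 and Ser2P pileups of 47, 31, 54 and 41. Ndufs1, an iron-sulphur subunit, had Ser5P pileups of 41, 52, 51 and 49 and Ser2P pileups of 34, 26, 41 and 36. All 8 libraries were marked at both genes. The control and KD pileups overlapped at Ndufv1 for both marks and at Ndufs1 for Ser5P. For Ser2P at Ndufs1 both KD pileups lay above both controls, but below them once divided by the library median (0.85 and 1.08 against 0.804 and 0.783). At the other end, 3 accessory subunit genes had weak and patchy peaks. Ndufa1 had Ser5P pileups of 6 in control 2 and 8 in KD 1 and no peak in the other 2 Ser5P libraries. Ndufs4 had 6 in control 1 and 8 in KD 2. Ndufa9 had 9 and 8 in the controls and no peak in the KD libraries, as described with the KD comparison.

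Complex II has 4 nuclear genes and was marked throughout. Sdhd, a membrane anchor, had Ser5P pileups of 32, 31, 53 and 45. Sdhb, the iron-sulphur subunit, had 29, 18, 23 and 22, and Sdha, the flavoprotein that oxidises succinate, had 13, 21, 25 and 19. Sdhc, the other anchor, had the narrowest coverage, with Ser5P over 354, 290, 274 and 290 bp. In Sdhd alone of these 4 both KD libraries lay above both controls for Ser5P, and this difference did not pass the test given below.

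Complex III held some of the tallest promoter peaks. Uqcrq, a small accessory subunit, had Ser5P pileups of 124, 151, 114 and 132 and Ser2P pileups of 174, 104, 204 and 216. Uqcrh, the hinge protein, had Ser5P pileups of 120, 141, 141 and 145 and Ser2P pileups of 91, 77, 142 and 140. The core protein gene Uqcrc1 was lower, with Ser5P pileups of 32, 27, 26 and 34. Uqcr11 and Uqcrb, both small subunits, were marked in all 8 libraries. The exception was Uqcrfs1, which encodes the Rieske iron-sulphur protein, with Ser5P in control 1 and KD 1 only (pileups 6 and 18) and Ser2P in control 1, KD 1 and KD 2 (11, 19 and 28). The missing libraries came from both lines.

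In complex V the catalytic beta subunit gene Atp5b had Ser5P pileups of 111, 109, 119 and 145, and Ser2P pileups of 104, 71, 171 and 160. Its alpha partner Atp5a1 was lower, with Ser5P pileups of 24, 30, 33 and 28. Coverage was widest at Atp5md, which encodes a small subunit of the membrane part, with Ser5P over 931, 1309, 1339 and 1430 bp, and at Atp5l, the subunit g gene, with 1094, 1222, 960 and 1195 bp. Marking was partial at Atp5o, which encodes the oligomycin sensitivity protein (6 of 8 libraries), Atp5k (6), Atp5mpl (6), Atp5g3 (7) and Atp5d (2). Ser2P control 2, the shallowest library, lacked a peak at 4 of these 5 genes and had a pileup of 10 at Atp5k.

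Many of these promoters are shared with a neighbour. Another protein-coding gene started within 1000 bp on the opposite strand at 31 of 87 genes (35.6%), beside 10.8% of all genes. Of these 31 genes 30 carried Ser5P in all 4 libraries (96.8%, beside 83.0% of all genes with such a neighbour), against 36 of the other 56 (64.3%, beside 32.2%). As examples picked by name after the neighbours were seen, Ndufs1 starts 9 bp from Eef1b2, a translation elongation factor, Ndufa7 10 bp from Rps28, Ndufs6 21 bp from Mrpl36, Ndufb5 302 bp from Mrpl47 and Sdhd 52 bp from Timm8b, an import chaperone. Atp5j starts 966 bp from Gabpa, a transcription factor known for its sites in respiratory gene promoters. A peak between such starts cannot be given to either gene. Among the 65 genes marked in all 8 libraries, the median summit lay within 250 bp of the gene's own 5′ end at 61, and the other 4 were Ndufa11, Ndufa13, Ndufb5 and Atp5j.

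Some genes without a promoter peak at the outer 5′ end have their RefSeq start farther in. Cox5a, a complex IV subunit, has its RefSeq transcript start 3904 bp inside the gene, and the 1000 bp on each side of that start held 485, 1014, 729 and 762 bp of Ser5P and 634, 335, 864 and 613 bp of Ser2P. Cox7a2, the common form of subunit VIIa, has its start 11569 bp inside, with 695, 557, 758 and 903 bp of Ser5P there and 784, 493, 883 and 826 bp of Ser2P. Atp5d, the delta subunit of the ATP synthase and marked at its outer end in only 2 Ser2P libraries, has its start 3577 bp inside, where Ser5P covered 974, 830, 804 and 848 bp and Ser2P 749, 0, 782 and 823 bp. These 3 genes were thus marked in every Ser5P library at that start, and only Ser2P control 2 at Atp5d lacked a peak.

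Cox5a and Cox7a2 are among the 11 genes unmarked at the outer 5′ end in all 8 libraries, and 5 of the others are isoforms known from other tissues. Several complex IV subunits come in a broadly expressed form and a form of heart and skeletal muscle, lung or testis. Cox4i1, the common form of subunit IV, had Ser5P over 751, 501, 711 and 934 bp, and Cox4i2, the lung form, had none. Cox6a1 had 483, 494, 1141 and 709 bp, and the muscle form Cox6a2 had none. Cox8a, the common form of subunit VIII, had 1062, 1004, 956 and 1043 bp with pileups of 106, 92, 104 and 117, and neither Cox8b, the muscle form, nor Cox8c, a testis form, had a peak. Cox7b2, a testis form, was unmarked, and so was the common form Cox7b, whose RefSeq start is its outer 5′ end. Ndufb4b and Ndufb4c, short copies of Ndufb4, were unmarked and Ndufb4 itself was marked in all 8 libraries. Reads from near-identical copies may be split or dropped in mapping, so the pair is uncertain.

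Isoform genes did not all follow tissue. Cox7a1, the heart and skeletal muscle form of subunit VIIa, had Ser5P over 447, 624, 504 and 540 bp with pileups of 36, 44, 30 and 29, and Ser2P pileups of 37, 26, 54 and 33. Cox6b2, the testis form of subunit VIb, had wider and taller Ser5P (929, 1085, 1192 and 955 bp, pileups 41, 58, 42 and 40) than the common form Cox6b1 (0, 541, 397 and 522 bp, pileups 12, 11 and 17 where marked). The nearest 5′ end of another protein-coding gene lay 14396 bp from Cox7a1 and 13002 bp from Cox6b2. The lowest Cox6b2 pileup thus stood above the highest Cox6b1 pileup for each mark. Of 10 muscle and heart markers 7 had no promoter Ser5P (Des, Myog, Tnnt2, Myod1, Myh6, Myh7 and Mb), while Tnni3 was marked in all 4 Ser5P libraries, Ckm in control 2 and Acta1 in KD 2. Their part in the Cox7a1 peak was not tested. The 3 genes for subunit c of the ATP synthase encode the same mature protein, and all carried peaks: Atp5g1 with Ser5P pileups of 72, 74, 60 and 71, Atp5g2 with 68, 83, 62 and 76, and Atp5g3 with 18, 14, 16 and 15. Atp5g3 was the lowest in every Ser5P library. Its RefSeq start lies 1138 bp inside the gene and so outside the promoter window. The Ser5P summits of Atp5g3 lay 815 to 1226 bp inside the gene.

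**Figure D2:**
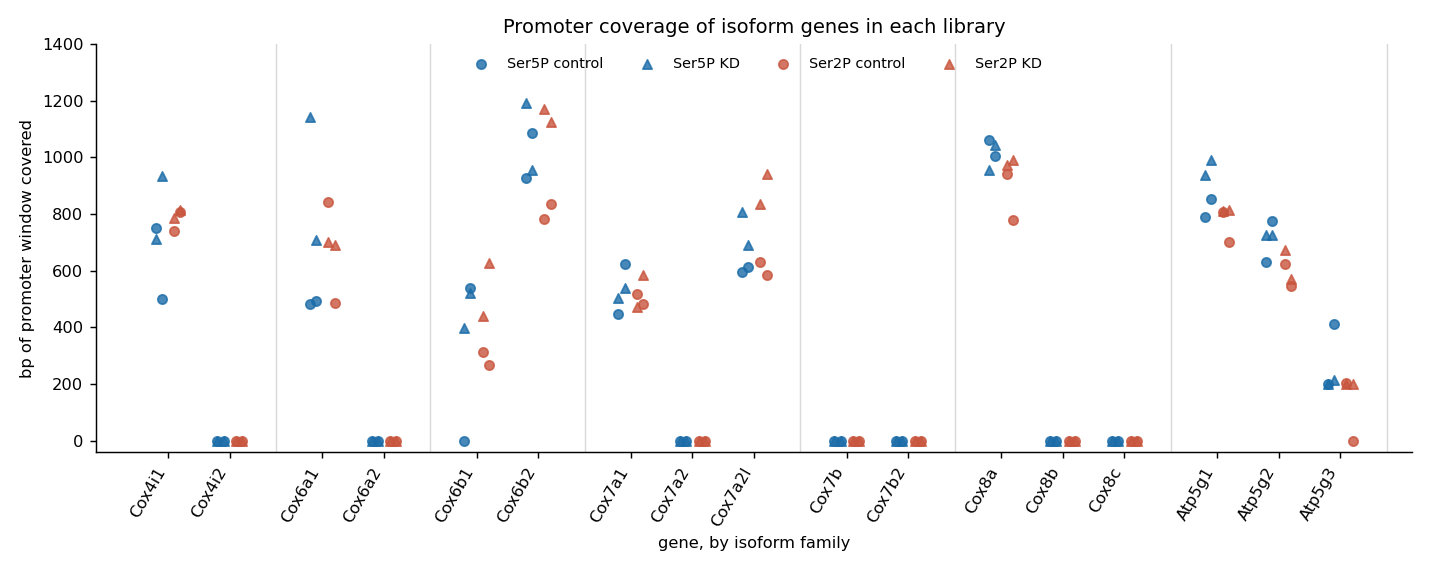
Bases of the promoter window covered by peaks (vertical axis) for the isoform genes of 7 families (horizontal axis), a point for each library, with circles for control, triangles for KD, blue for Ser5P and red for Ser2P. The common forms Cox4i1, Cox6a1 and Cox8a are covered in all 8 libraries and Cox4i2, Cox6a2, Cox8b and Cox8c in none, whereas Cox7a1 and Cox6b2 are covered in all 8.

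To set the marked isoforms beside an unmarked one, the bases upstream of the start are shown for 7 genes, from RefSeq on GRCm38.p6, 5′ to 3′ on the strand of the gene and ending at the base before the start. Capitals mark a searched motif where the stretch holds one. Ndufa6, at chr15:82354292-82354541 on the minus strand, holds the core motif of NRF1, a regulator of respiratory genes, and had Ser5P pileups of 75, 62, 56 and 73. Uqcrh, at chr4:116075071-116075268 on the minus strand and cut short at the neighbour Lrrc41, holds an ETS core. Cox8a (chr19:7217617-7217866, minus) and Cox8b (chr7:140900447-140900696, minus) are the marked and the unmarked form of the same subunit. Cox8a holds ETS cores on the opposite strand, from positions -6 and 31 relative to its start. The stretch shown ends before either is complete, so it has no capitals. Cox7a1 (chr7:30183921-30184170, plus) and Cox6b2 (chr7:4753095-4753344, minus) are the tissue forms with peaks, and the Cox6b2 capitals are an SP box. Ndufa9 (chr6:126849145-126849394, minus) is the gene whose Ser5P was seen in the controls only.
Ndufa6: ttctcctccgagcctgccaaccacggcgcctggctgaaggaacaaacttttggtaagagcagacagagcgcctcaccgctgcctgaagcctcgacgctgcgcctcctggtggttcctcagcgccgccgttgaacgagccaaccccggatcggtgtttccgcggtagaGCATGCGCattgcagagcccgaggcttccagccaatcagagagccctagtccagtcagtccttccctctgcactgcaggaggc
Uqcrh: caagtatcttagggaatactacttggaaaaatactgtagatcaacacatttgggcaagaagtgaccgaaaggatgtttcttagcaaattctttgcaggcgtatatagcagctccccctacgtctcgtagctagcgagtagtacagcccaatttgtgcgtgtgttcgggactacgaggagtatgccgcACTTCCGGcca
Cox8a: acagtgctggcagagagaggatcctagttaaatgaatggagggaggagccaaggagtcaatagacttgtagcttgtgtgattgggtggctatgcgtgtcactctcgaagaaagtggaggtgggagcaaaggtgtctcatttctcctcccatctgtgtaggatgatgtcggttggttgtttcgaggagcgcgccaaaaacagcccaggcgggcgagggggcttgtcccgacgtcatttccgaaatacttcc
Cox8b: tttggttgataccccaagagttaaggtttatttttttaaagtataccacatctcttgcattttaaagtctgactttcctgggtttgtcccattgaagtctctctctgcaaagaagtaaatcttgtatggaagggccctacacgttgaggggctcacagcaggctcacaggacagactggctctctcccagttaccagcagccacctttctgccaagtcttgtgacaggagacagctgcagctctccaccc
Cox7a1: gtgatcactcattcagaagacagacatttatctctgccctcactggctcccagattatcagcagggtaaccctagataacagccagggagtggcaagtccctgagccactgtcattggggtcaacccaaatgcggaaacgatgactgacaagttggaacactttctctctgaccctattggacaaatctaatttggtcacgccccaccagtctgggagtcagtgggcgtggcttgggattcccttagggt
Cox6b2: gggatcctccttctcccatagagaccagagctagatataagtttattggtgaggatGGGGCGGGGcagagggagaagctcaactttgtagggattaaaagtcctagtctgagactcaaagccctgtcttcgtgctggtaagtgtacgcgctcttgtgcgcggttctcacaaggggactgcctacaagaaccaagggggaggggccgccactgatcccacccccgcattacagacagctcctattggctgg
Ndufa9: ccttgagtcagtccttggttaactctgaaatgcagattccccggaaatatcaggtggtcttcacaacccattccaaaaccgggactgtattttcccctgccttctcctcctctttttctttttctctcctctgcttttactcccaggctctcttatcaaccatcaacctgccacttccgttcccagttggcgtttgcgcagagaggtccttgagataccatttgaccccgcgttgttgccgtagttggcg

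Motifs were counted in the RefSeq promoter table, which holds the 250 bases before and 50 from each start. It had 70 of the 87 genes, and 17491 genes in all. Both strands were searched for exact letters. The NRF1 core GCATGCGC was found at 10 of 70 genes (14.3%), beside 3.93% of all promoters, and the full NRF1 palindrome, which contains the core, at 5 (7.14%, beside 1.47%). The YY1 core AAGATGGC was found at 10 (14.3%, beside 3.57%). The ETS core CCGGAAGT, bound by GABP among others, was found at 5 (7.14%, beside 5.69%), the SP box GGGGCGGGG at 11 (15.7%, beside 17.3%) and the GATA site AGATAAG at 0 (beside 3.12%). Among genes with promoter Ser5P in all 4 libraries the shares were 16.1% of 56 genes for the NRF1 core, 7.14% for the palindrome and 14.3% for the YY1 core, beside 7.16%, 2.88% and 6.11% of 6705 genes. In the same genes the ETS core was at 8.93%, the SP box at 19.6% and the GATA site at 0%, beside 11.4%, 25.8% and 2.01%, so for the ETS core the order of the shares turned. Genes with the NRF1 core were Ndufa6, Ndufa8, Ndufa11, Sdhb, Uqcrc1, Uqcr11, Cox6a1, Atp5g2, Atp5k and Atp5l.

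The YY1 core had a set place in these promoters. At 8 of its 10 genes (80%) it lay on the strand of the gene and past the start, 22 to 38 bases in, beside 41.5% of the 624 promoters of all genes that hold it. The 8 genes were Ndufa3, Ndufa9, Ndufb8, Ndufc1, Ndufs4, Ndufs6, Ndufs7 and Atp5j2. The motif holds the letters ATG of a start codon. Of these 8 genes 6 had promoter Ser5P in every Ser5P library, and Ndufa9 and Ndufs4 were the others. The NRF1 core lay upstream of the start at 9 of 10 genes, beside 88.8% of the 688 promoters that hold it. A match is a stretch of letters, not a bound site.

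Beyond the promoter, fewer of these genes were marked than of all genes. Ser2P was present over the transcribed interval in all 4 Ser2P libraries at 15 of 87 genes (17.2%), beside 26.4% of all genes. Among genes with promoter Ser5P in all 4 libraries it was present at 9 of 66 (13.6%), beside 39.7% of 8109 genes. The respiratory genes are short, with a median length of 7131 bp against 17268 bp, so the same share was taken by length. Up to 5000 bp it was 3 of 22 genes (13.6%, beside 22.6%), from there to 10000 bp 4 of 27 (14.8%, beside 29.0%), to 20000 bp 0 of 9 (beside 33.2%) and above 20000 bp 2 of 8 (25%, beside 50.0%). The share was below that of all genes in each of the 4 length classes, and the difference was not tested. Interval Ser2P was seen at 33, 18, 31 and 24 of the 87 genes in the 4 Ser2P libraries. The shallowest library had the lowest count, but control 1 had more than either deeper KD library, and the part of depth was not tested.

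At the 5′ end itself, Ser5P covered 90.9% to 95.5% of the 66 genes in the 4 Ser5P libraries, and Ser2P 89.4% to 97.0% in the 4 Ser2P libraries, beside 80.9% to 82.4% and 70.8% to 85.4% of all genes with promoter Ser5P. At 1000 bp inside, the shares were 4.55% to 6.06% for Ser5P and 3.03% to 6.06% for Ser2P, beside 10.7% to 13.3% and 5.88% to 12.2%. At the 3′ end Ser5P covered 0% to 3.03% and Ser2P 0% to 1.52% of the 66 genes. All genes with promoter Ser5P stood at 1.86% to 2.34% and 0.888% to 2.29% there, so coverage was low in both sets. The ranges of the marks overlapped at the 5′ end, and few of these genes had a called peak of either mark at 1000 bp inside or at the 3′ end.

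**Figure D3:**
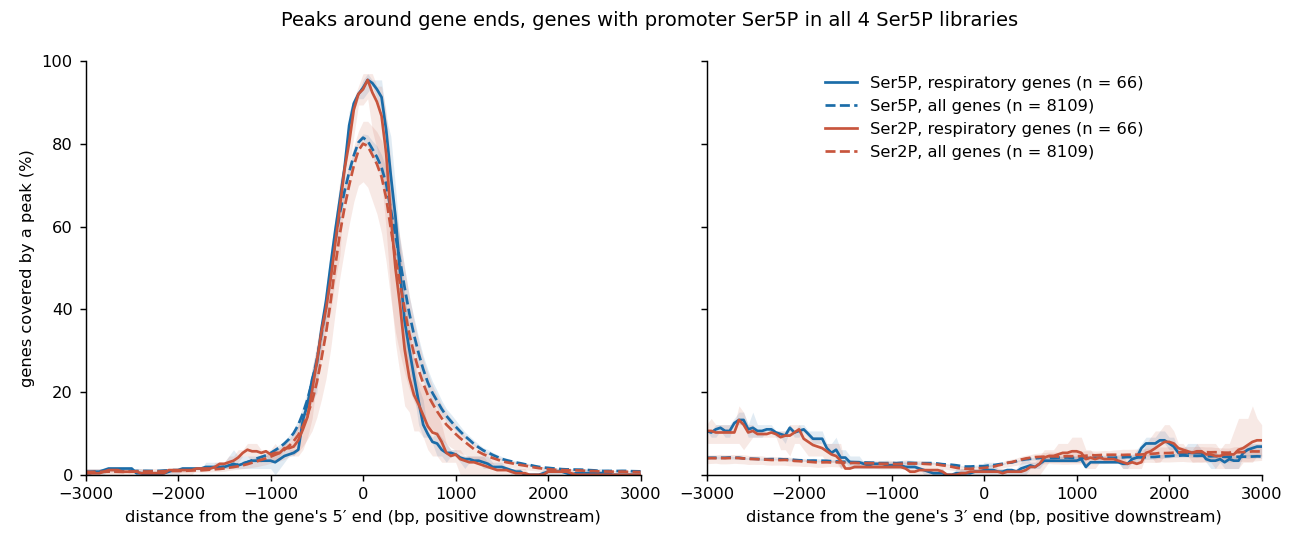
Percent of genes covered by a peak (vertical axis) against the distance from the 5′ end (left) and 3′ end (right) in bp, for the 66 respiratory genes with promoter Ser5P in all 4 libraries (solid) and for all 8109 such genes (dashed); lines are means and bands the range over the 4 libraries of an antibody. Both marks cover at least 89.4% of respiratory genes at the 5′ end and at most 6.06% by 1000 bp inside.

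The 15 genes with interval Ser2P in all 4 libraries were read gene by gene, since the window can hold other elements. At 8 of them the median summit lay past the 3′ end of the gene, and at 4 it lay within 1000 bp of the 5′ end of another gene. Atp5b, Ndufb6 and Uqcr11 were in both sets, so these made up 9 genes. Atp5b had interval Ser2P pileups of 43, 27, 89 and 90, with summits 149 to 442 bp from the 5′ end of Baz2a. Ndufb6 and Uqcr11 had theirs next to Topors and Mbd3, and Atp5j next to Gabpa. Ndufb10 had Ser5P pileups of 98, 100, 95 and 132 and Ser2P pileups of 48, 27, 60 and 61 with summits 2031 to 2112 bp past its 3′ end and 1827 to 1908 bp from the 5′ end of Rps2. In the gene and away from the starts of other genes were the peaks of Ndufa10, with Ser2P over 606, 301, 2126 and 828 bp. So were those of Ndufa4l2, a relative of Ndufa4 known as a hypoxia target (1323, 1032, 1772 and 1566 bp). No RefSeq start was available for Ndufa4l2, so its own start was not set against its peaks. The peaks of Cox5a and Cox7a2 were in the gene as well, but near their own RefSeq starts. Ndufa13 and Atp5j had peaks that reach back over their promoters.

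The antibodies were then compared, to ask which of these promoters were relatively rich in Ser2P. By the percent of the promoter covered, 0 of 76 genes with any coverage passed the test (limma over all genes, Benjamini-Hochberg adjusted p under 0.05; smallest 0.293), and 8 had an unadjusted p under 0.05. Of all 10340 genes tested 0.783% passed. Over the transcribed interval 0 of 45 genes passed, with 1 at an unadjusted p under 0.05, and 0.044% of 11368 genes did. Coverage says little about height, so the log2 summit pileup, divided by the library's median over the same genes, was tested as well for genes with a peak in all 8 libraries. This measure was chosen after seeing the data. It is relative: a gene higher in Ser2P stands higher against the library median in the Ser2P libraries than in the Ser5P libraries. Such a gene can still lie below the median gene for Ser2P, as Cox6c did in each Ser2P library.

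By height, 22 of 65 genes differed between the antibodies: 15 were higher in Ser2P, where 16.5% of 7424 genes were, and 7 were lower, where 17.4% were. Among the 65 genes calls higher in Ser2P outnumbered lower ones, whereas among all genes the lower ones were slightly more frequent. This contrast was not tested, as genes of a list are not replicates. The largest difference was at Ndufa13, with Ser5P pileups of 49, 56, 62 and 98 and Ser2P pileups of 140, 84, 195 and 199 (log2 difference 1.31, SE 0.102, limma adjusted p = 7.58e-15). These summits lay upstream of its outer 5′ end, and farther from its RefSeq start and from the Tssk6 5′ end. Ndufb2, a complex I accessory subunit with its nearest neighbour 18721 bp away, had 18, 29, 22 and 31 against 47, 34, 77 and 55 (1.18, SE 0.153, limma adjusted p = 2.14e-08). Every Ser2P library lay above every Ser5P library at both genes relative to the library median. Cox6c, a complex IV subunit with the nearest other start 202326 bp away, had 17, 26, 14 and 20 against 35, 24, 52 and 41 (1.08, SE 0.172). Ndufb9, which shares its promoter with Tatdn1, had 36, 43, 46 and 47 against 72, 46, 113 and 118 (1.05, SE 0.119).

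In the other direction Cox7c, another complex IV subunit, had Ser5P pileups of 23, 30, 29 and 34 and Ser2P pileups of 8, 7, 31 and 21 (log2 difference -0.94, SE 0.202, limma adjusted p = 0.000235). The low Ser2P values are those of the controls. Cox6b2 (-0.59, SE 0.155), Ndufb11 (-0.41, SE 0.106), Ndufa7, Ndufs1, Atp5g2 and Ndufb10 were the other genes lower in Ser2P. The iron-sulphur subunit Sdhb (0.53, SE 0.174), the anchor Sdhd (0.39, SE 0.150) and the complex III subunits Uqcrq (0.49, SE 0.0856), Uqcrb and Uqcr11 were among those higher in Ser2P. By complex, 8 genes of complex I were higher and 4 lower of 33 tested, 2 and 0 of 4 in complex II, 3 and 0 of 7 in complex III, 1 and 2 of 9 in complex IV, and 1 and 1 of 12 in complex V. Leaving out each library in turn kept 11 of the 22 calls: Ndufa13, Ndufb2, Cox6c, Ndufb9, Uqcrq, Ndufb5, Ndufs8 and Ndufb7 higher, and Cox7c, Ndufb11 and Cox6b2 lower. The other 11 lost theirs in at least 1 of these fits.

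**Figure D4:**
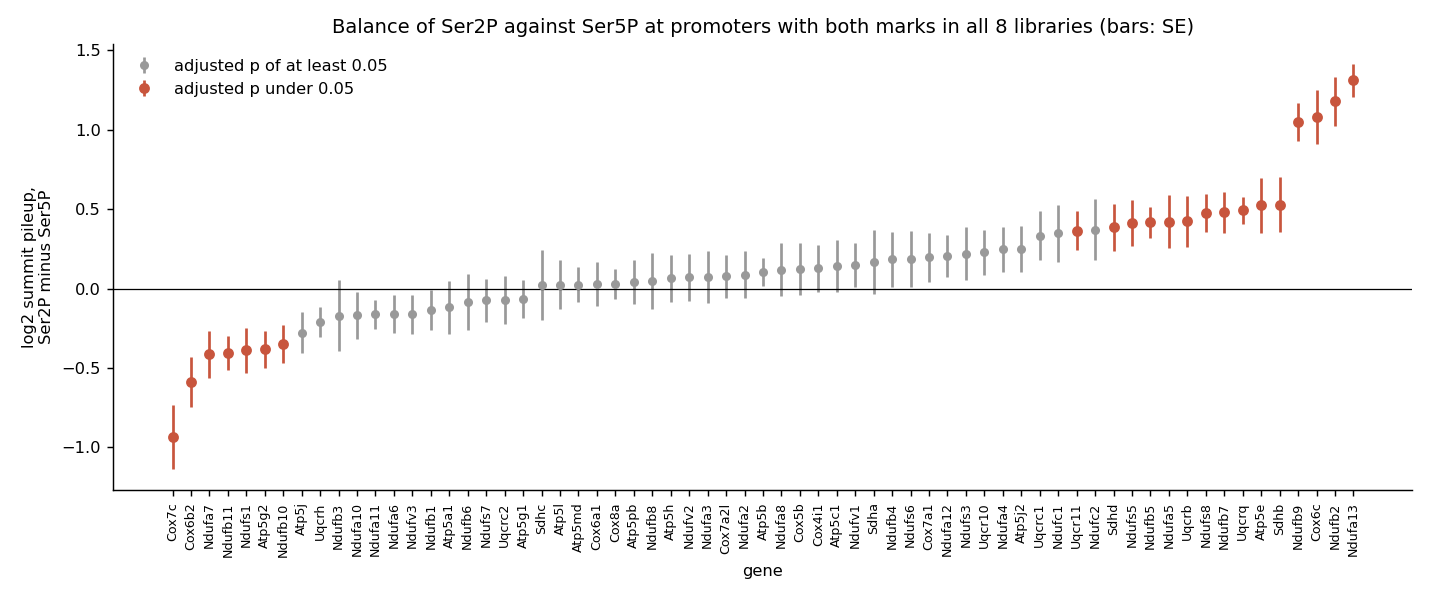
Difference in log2 summit pileup between Ser2P and Ser5P (vertical axis, relative to library medians, bars are SE) for the 65 genes with both marks at the promoter in all 8 libraries (horizontal axis, ordered by the difference). Red points passed an adjusted p under 0.05 in limma over all genes; 15 lie above 0, led by Ndufa13 at 1.31, and 7 below, led by Cox7c at -0.94.

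Over the transcribed interval 8 of 13 genes with peaks in all 8 libraries differed by height: 2 were higher in Ser2P, where 15.6% of 4708 genes were, and 6 were lower, where 22.2% were. Ndufb10 had the largest fall (-1.24, SE 0.104, limma adjusted p = 4.94e-07), and Atp5d, Ndufb6, Atp5b, Atp5h and Atp5j were the others lower in Ser2P. At 5 of these 6 the median summit lay past the 3′ end. At Atp5j the summits lay 654 to 870 bp from its 5′ end, near Gabpa and before the interval begins. The same peaks gave the Atp5j promoter height, which did not pass (-0.28, SE 0.131, limma adjusted p = 0.0973). Summits at Atp5d did not share a site, so its difference was not read at a single peak. They lay 9571 to 10807 bp from its 5′ end, but at 3558 bp, near its RefSeq start, in Ser2P KD 2. Ndufa10 and Cox7a2 were higher in Ser2P, with summits inside the gene and, at Cox7a2, at its RefSeq start. Without Ser5P control 2 neither of these 2 passed.

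The comparison of the Myrlin KD line with the control line asked whether polymerase on the respiratory genes differed after knockdown. A peak was present in both libraries of one line and neither of the other at 5 of the 87 genes, over both marks and both windows. Promoter Ser5P was seen in the controls only at Ndufa9, an accessory subunit of complex I, over 277, 347, 0 and 0 bp. This was 1 control-only gene of 87, where 0.446% of all genes were, and 0 were KD-only, where 0.409% were. Ndufa9 (chr6:126821863-126849144, minus strand) was weak in the controls, with pileups of 9 and 8 and summits 154 and 264 bp inside the gene, and it had no Ser2P peak at the promoter in any library. With peaks of −log10 q of at least 5 the Ndufa9 call was lost.

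Ser2P over the transcribed interval was control-only at Sdhd and KD-only at Uqcrc2, a core protein of complex III. That is 1 gene of 87 in each direction, where 0.548% and 2.25% of all genes were called. At Sdhd (chr9:50596340-50603849, minus strand) Ser2P covered 218, 500, 0 and 0 bp, with summits 2054 and 2084 bp inside the gene, and Ser5P at the same place covered 238, 0, 0 and 276 bp. At Uqcrc2 (chr7:120635189-120659523, plus strand) it covered 0, 0, 590 and 730 bp, with summits 27069 and 27216 bp from the 5′ end and past the 3′ end, and Ser5P covered 395 bp there in KD 2 alone. Depth was higher in both KD libraries, and its part in the Uqcrc2 call was not tested beyond the alternatives given next. Uqcrc2 lost its call at −log10 q of at least 5, with equal list length, after thinning to the shallowest library, without the extension past the 3′ end and with the window drawn from the 5′ end. Sdhd kept its call in each of these except the window drawn from the 5′ end.

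The other combinations of mark and window were added after seeing the data. Ser5P over the transcribed interval was control-only at Ndufb8, an accessory subunit of complex I, and KD-only at Atp5mpl, a small subunit of complex V. That is 1 gene of 87 in each direction, where 1.44% and 1.08% of all genes were called. At Ndufb8 Ser5P covered 467, 115, 0 and 0 bp with pileups of 11 and 9, and the summits lay 2921 and 3043 bp past the 3′ end and 198 and 320 bp from the 5′ end of Sec31b. At Atp5mpl it covered 0, 0, 2 and 537 bp with pileups of 14 and 12, and the summits lay 3027 and 2418 bp past the 3′ end. Both peaks were thus low and outside the gene, and neither call was kept without the extension past the 3′ end. Ser2P at the promoter was control-only at 0 genes, where 0.2% of all genes were, and KD-only at 0, where 1.1% were.

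Coverage of the 87 promoters summed to 51973, 54649, 57327 and 56959 bp for Ser5P and to 53188, 42100, 58517 and 58345 bp for Ser2P. Both KD libraries lay above both controls for each mark, as did the sums over all genes. For genes marked in all 4 libraries the median difference, KD minus control, was 1.85 percentage points of the window for Ser5P, beside 1.87 for all genes, and 5.60 for Ser2P, beside 7.05. No gene passed the test on coverage: 0 of 74 genes for promoter Ser5P (limma, smallest adjusted p = 0.370, 5 at an unadjusted p under 0.05; 0% of 9797 genes passed) and 0 of 40 for interval Ser2P (smallest adjusted p = 0.438, 4 at an unadjusted p under 0.05; 0% of 10647 passed). With 2 libraries against 2 an exact permutation test of a single gene cannot go below p = 0.333. The difference of the KD effect between antibodies at promoters passed at 0 of 76 genes (limma, smallest adjusted p = 0.413, 4 at an unadjusted p under 0.05; 0% of 10340 passed).

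Promoter height differed little between the lines. For Ser5P the log2 differences of 66 genes ranged from -0.53 to 0.53 with a median of 0.07, beside 0.00 for all genes, and 64 lay within 0.5 of 0. None passed the test (limma, smallest adjusted p = 0.0575, 8 at an unadjusted p under 0.05), where 5.55% of 8109 genes passed. The extremes were Sdhd (0.53, SE 0.20), with pileups of 32 and 31 against 53 and 45, and Cox7a1 (-0.53, SE 0.212), with 36 and 44 against 30 and 29. At both genes the control and KD libraries did not overlap. Such a split was common: relative to the library median, 25 of the 66 genes lay wholly higher and 14 wholly lower in KD. Of all 8109 genes 1961 and 1876 did. Wholly higher genes thus made up a larger share of the 66 than of all genes, and wholly lower ones a smaller share. This contrast was not tested. Ndufa13 had 49 and 56 against 62 and 98 (0.47, SE 0.160, limma adjusted p = 0.0575), and it passed without KD 1, when 195 genes of all passed. Cox8a (106 and 92 against 104 and 117) overlapped between the lines, and Uqcrh (120 and 141 against 141 and 145) met at a shared value.

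For promoter Ser2P the log2 differences of 66 genes ranged from -0.49 to 1.13 with a median of 0.04, beside -0.01 for all genes. None passed (limma, smallest adjusted p = 0.0521, 9 at an unadjusted p under 0.05), where 1.61% of 7813 genes passed. Relative to the library median, 15 of the 66 genes lay wholly higher and 12 wholly lower in KD. Of all 7813 genes 1604 and 1812 did. Cox7c stood apart, with Ser2P pileups of 8, 7, 31 and 21 (1.13, SE 0.311, limma adjusted p = 0.0521), while its Ser5P pileups were 23, 30, 29 and 34. Uqcrc2 (0.61, SE 0.221) had 23 and 18 against 47 and 50, and Atp5g2 (-0.48, SE 0.180) had 64 and 36 against 64 and 45. Without control 2 both Cox7c and Uqcrc2 passed, and without control 1 Cox5b and Ndufb10 did.

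**Figure D5:**
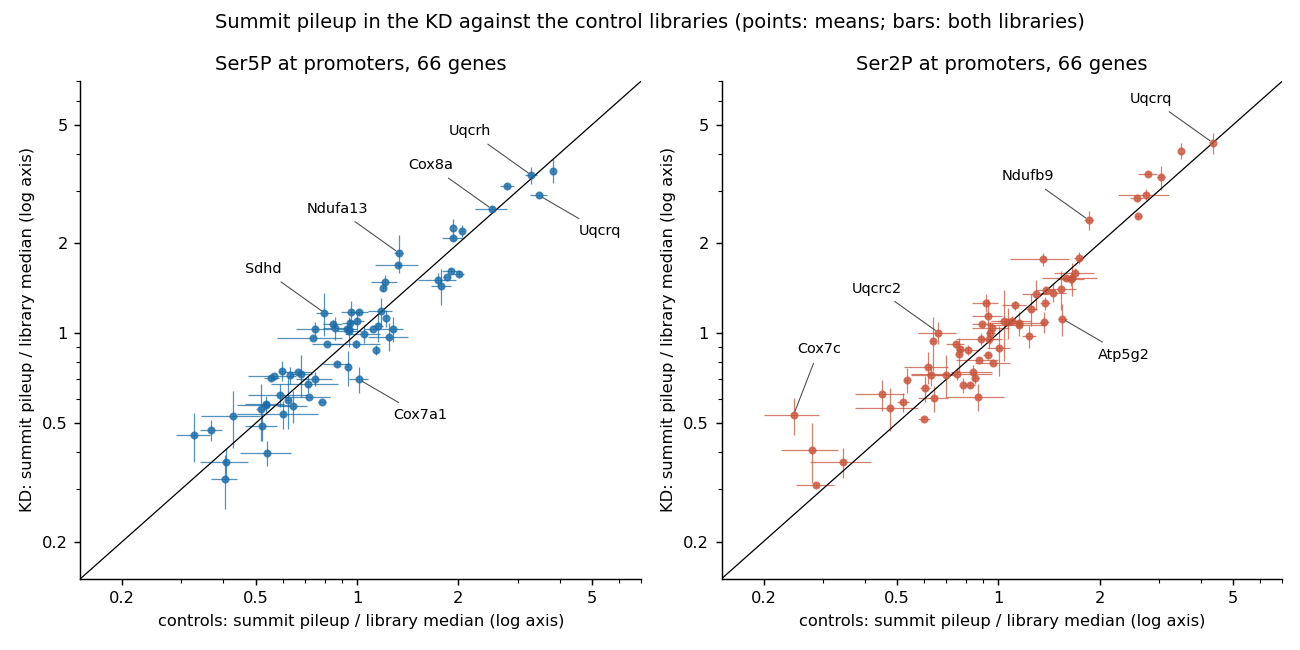
Summit pileup at promoters divided by the library median in the KD libraries (vertical axis) against the control libraries (horizontal axis), both on log axes, for the 66 genes with a peak in all 4 libraries of Ser5P (left) and of Ser2P (right); points are means, bars span both libraries of a line and the diagonal marks equal values. Points follow the diagonal, with Cox7c (pileups 8 and 7 against 31 and 21) the farthest from it for Ser2P.

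Over the transcribed interval Ser2P height rose in KD at 1 of 15 genes with peaks in all 4 libraries, where 1.43% of 5678 genes rose. This was Atp5b, with pileups of 43 and 27 against 89 and 90 (log2 difference 0.83, SE 0.157, limma adjusted p = 0.0229), at the peak beside the Baz2a 5′ end. The Atp5b promoter itself had Ser2P pileups of 104 and 71 against 171 and 160 (0.30, SE 0.125), which did not pass. Without KD 1 or without KD 2 the interval call was lost, and 0 of 5678 genes then passed (limma, 436 and 469 at an unadjusted p under 0.05).

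Other genes of the pathway were read from lists. Of 56 assembly factors and electron carriers, among them cytochrome c and the copper and haem chaperones of complex IV, 49 carried promoter Ser5P in all 4 libraries (87.5%, beside 37.7% of all genes). Atpaf2, an assembly factor of the ATP synthase, had no promoter Ser5P peak. Atpif1, which encodes the inhibitor of the ATP synthase, was KD-only for promoter Ser5P, with 0, 0, 548 and 599 bp, the 1 such gene of the 56, where 0.409% of all genes were. Its interval carried Ser2P over 652, 520, 1620 and 1556 bp, in all 4 Ser2P libraries. Interval Ser2P was KD-only at Tmem70 (0, 0, 169 and 427 bp) and Ndufaf3 (0, 0, 179 and 115 bp), both assembly factors, and at Etfdh (0, 0, 980 and 298 bp), which passes electrons to ubiquinone. These are 3 of 56, where 2.25% of all genes were. None of the 56 was control-only for promoter Ser5P or interval Ser2P, where 0.446% and 0.548% were. Of 17 regulators 13 carried promoter Ser5P in all 4 libraries (76.5%), and Gabpb1, Mterf1a and Ppargc1a, a coactivator known for driving mitochondrial genes, had none. No regulator was called for promoter Ser5P or interval Ser2P.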

How the data were processed

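Each library came with its own deposited narrowPeak list. The submitters' processing notes name MACS2 2.2.7.1, deepTools 3.3.1, Picard 2.21.4, SAMtools 1.9, Bowtie2 2.3.5 and cutadapt 2.7, with the builds GRCm38 and mm10. Not given in the sources used here were the settings and any control library. For each peak the authors deposited a display score, a fold enrichment at the summit as a ratio, a −log10 p-value and a −log10 q-value. The authors' fold and p were used to rank, filter or describe peaks and to solve the whole-number summit pileup and its background, matched to within 0.001 in −log10 p, which succeeded for 100% of peaks.

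Gene intervals came from RefSeq GRCm38.p6. Strand came from RefSeq starts (17491 genes) or from GENCODE vM1 by symbol (3647) or synonym (393), and 352 genes without a strand were left out. Exon annotation was not used here. Covered percent and log2 pileup were fitted over all genes with limma 3.58.1 in R 4.3.3 (lmFit, eBayes with trend, two-sided, Benjamini-Hochberg over all genes tested). The fit of promoter Ser5P coverage, control against KD, was checked on simulated data. The fits of log2 pileup and of the antibodies were not. Coverage was filtered to genes with a peak in at least 1 library, and pileup to genes with a peak in all. In the tests limma shares the estimate of spread across genes, so its standard errors rest on more than the 2 libraries of a group.

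The genes named were those called, the highest and lowest in each complex by promoter Ser5P coverage, those unmarked, the isoform families and the core subunits. Genes with a height difference, the tallest peaks and the genes shown as sequence were named after their values were seen. The genes, lists and tests were chosen with earlier results of these data known. Alternatives tried included a −log10 q minimum of 5, equal list length (20793 peaks), other windows, 200 bp covered, leaving out each library, no filter, an arcsine scale and a replicate block. Summit pileup, thinning to the shallowest library, intervals without other genes' 5′ ends and calls for interval Ser5P and promoter Ser2P were added after seeing the data. The labels give no batch. Values of 1 gene of the set, left out of the heat map of promoters, are not reported here.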

Additional observations from a re-analysis of the deposited data

How the results depend on the processing

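Of 517 alternatives in all, 398 kept the result, by a kept call or an equal or close count. A change of direction could be seen only for single genes called in the main setting, and 0 alternatives showed one. Counts of genes could only stay or move. Depth and the calling threshold limit the lists, and absence of a called peak is not absence of polymerase. Leaving out a library in turn, control-only genes for promoter Ser5P ranged from 1 to 2 and KD-only genes from 0 to 2, against 1 and 0. For interval Ser2P the ranges were 1 to 6 control-only and 1 to 6 KD-only, against 1 and 1, with 6 control-only without control 2, and 6 and 5 KD-only without control 1 and KD 2. Fewer libraries make such a call easier to meet. With −log10 q of at least 5, promoter Ser5P had 0 control-only genes and interval Ser2P 0 KD-only genes. Interval Ser2P also had 0 KD-only genes at equal list length, thinned and without the extension, and 0 in each direction with the window from the 5′ end, a wider window that takes in promoter peaks. It had 2 KD-only genes with 200 bp covered and 2 without other genes' 5′ ends, Ndufs8 being the added gene. For interval Ser5P, with 1 gene in each direction, the ranges without a library were 2 to 3 control-only and 2 to 6 KD-only (3, 3, 2 and 2, and 2, 2, 6 and 4, without control 1, control 2, KD 1 and KD 2). There it had 0 genes in each direction thinned, without the extension and with 200 bp covered, 0 control-only at equal list length, and 0 KD-only with −log10 q of at least 5 and with the window from the 5′ end. For promoter Ser2P, with 0 in each direction, leaving out a library gave 0 to 4 KD-only genes (4 without control 1, 1 without control 2 and 1 without KD 2) and 0 control-only, and KD-only genes numbered 3 with −log10 q of at least 5 and 1 at equal list length. For the remaining changes the cause was not tested.

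On covered percent the tests gave 0 genes, and the difference of the KD effect between antibodies gave 1 gene without Ser2P KD 2 (Ndufa4l2, range 0 to 1). On summit pileup, chosen after seeing the data, the counts were 22 for the antibodies at promoters, 8 over the interval and 1 for Ser2P KD over the interval. Leaving out libraries in turn gave 15 to 19, 6 to 8 and 0 to 3 genes, and for KD against control at promoters 0 to 1 for Ser5P and 0 to 2 for Ser2P. Replicate numbers were not taken as pairs, as no label ties them to a batch; the deviation correlation was 0.0379 for Ser5P and 0.173 for Ser2P. With the replicate block, covered percent gave 0 genes, and pileup kept all 31 calls and gave 2 for interval Ser2P in KD (Ndufa13 added).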
